A study of Homo sapiens with 5 samples.

Results

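In U2OS cells, a line from a human osteosarcoma, RNA was measured in 5 libraries and examined for 186 genes whose RNA was already higher at a low level of the transcription factor E2F1 and close to level between a medium and a high one. The genes were chosen from 27992 gene names by 3 limits on read counts scaled to counts per 1000000 gene reads (CPM), with 0.5 CPM added to both sides of each ratio. A gene had to reach 2 CPM in the YFP-low library, have a ratio of YFP-low to YFP-negative of at least 1.7, and have a ratio of YFP-high to YFP-medium between 0.8 and 1.25. Of 435 genes past the limits on YFP-low, 194 had their last ratio inside that window, 211 lay above it and 30 below it. From the 194, 8 were set aside by name, among them the cyclins CCNE1, CCNE2 and CCND3. All 186 remaining members had at least 1 CPM in at least 1 library, the minimum used for the 15099 genes that serve as the background here.

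E2F1 binds promoters as a pair with a DP protein and drives genes for entry into S phase, while the retinoblastoma protein holds it in check. It is also known for targets outside the cell cycle, apoptosis genes among them. The series followed its level with a doxycycline-inducible fusion of YFP, the hormone-binding part of the oestrogen receptor (ER) and E2F1, which 4-hydroxytamoxifen (OHT) activates.

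Each group held 1 library. In all but the parental one, U2OS pTRIPZ-YFP-ER-E2F1 cells had been sorted by YFP into YFP-negative, low, medium and high fractions, so YFP-negative cells carry the construct as well, and the parental library came from U2OS cells without it. The labels give all 5 libraries the same treatment, 500 ng/ml doxycycline for 48 h and then 90 nM OHT for a further 20 h, in medium with 8% fetal bovine serum. They do not say whether the construct line is 1 clone or a pool. Since no group has a second library, the spread between samples is unknown and no test was made. Intervals given with a fold are exact 95% counting intervals, which cover counting error only, and PCR copies among the reads make them too narrow even for that.

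Gene reads numbered 70.7 M to 76.5 M per library, so the entry limit of 2 CPM stood for 152 reads in YFP-low. E2F1, which is no member, had 91.6 CPM in parental cells, 116 in YFP-negative cells, 166 in YFP-low cells, 338 in YFP-medium cells and 900 in YFP-high cells. Between neighbouring fractions E2F1 was thus 1.44-fold higher in YFP-low than in YFP-negative, 2.03-fold higher in YFP-medium than in YFP-low and 2.66-fold higher in YFP-high than in YFP-medium. Reads of the construct and of the cell's own E2F1 are in 1 count here. Of the osteoblast markers, SPARC had 677 to 1419 CPM and RUNX2 32.8 to 54.0 CPM over the 5 libraries, while IBSP, BGLAP and SP7 had at most 7 reads in any library. No member is among the markers listed for osteoblast, epithelial, neuronal, leukocyte or endothelial cells, while 186 of all 15099 genes tested are members. PTPRC and CD3E of the leukocyte list and PECAM1 and CDH5 of the endothelial list stayed under 1 CPM in every library. In YFP-high over parental cells 24.9% of all genes were higher and 37.2% lower. Of the 8 leukocyte markers 3 reached the level tested, of which 2 were higher and 0 lower there, and the list summed to 17.6 to 32.3 CPM over the libraries. Of the 7 endothelial markers 5 were tested, with 2 higher and 2 lower, and a sum of 13.7 to 22.2 CPM. Of the 9 epithelial markers 6 were tested, with 1 higher and 3 lower, and a sum of 410 to 615 CPM. Of the 10 neuronal markers 7 were tested, with 2 higher and 2 lower, and a sum of 148 to 306 CPM. Their part in the results was not tested. In bulk RNA, fewer cells that express a gene and less of its RNA per cell cannot be told apart.

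The members rose with the first increase of E2F1 because the rule asks for it, and their median ratio of YFP-low to YFP-negative was 1.97, with a range of 1.71 to 5.17. All 186 were higher by 1.5-fold with a counting interval that excluded 1, the size rule used throughout, against 5.72% of all genes, with 2.78% of all genes lower. Between YFP-high and YFP-medium their median ratio was 1.01, and 0 passed the size rule in either direction, where 16.1% of all genes were higher and 12.9% lower. In YFP-high over YFP-negative 185 were higher, against 23.6% of all genes, with 36.8% of all genes lower. The rule set no limit on that ratio, though it used both libraries. Counts for YFP-low over YFP-negative and YFP-high over YFP-medium follow from the choice of genes. The count for YFP-high over YFP-negative does so only in part, since YFP-medium over YFP-low was left free. With this choice of genes the median member had 23.4 CPM in parental cells, 35.9 in YFP-negative cells, 73.5 in YFP-low cells, 109 in YFP-medium cells and 110 in YFP-high cells. Together the 186 genes took 0.921% of gene reads in parental cells, 1.24% in YFP-negative cells, 2.54% in YFP-low cells, 3.75% in YFP-medium cells and 3.76% in YFP-high cells.

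**Figure D1:**
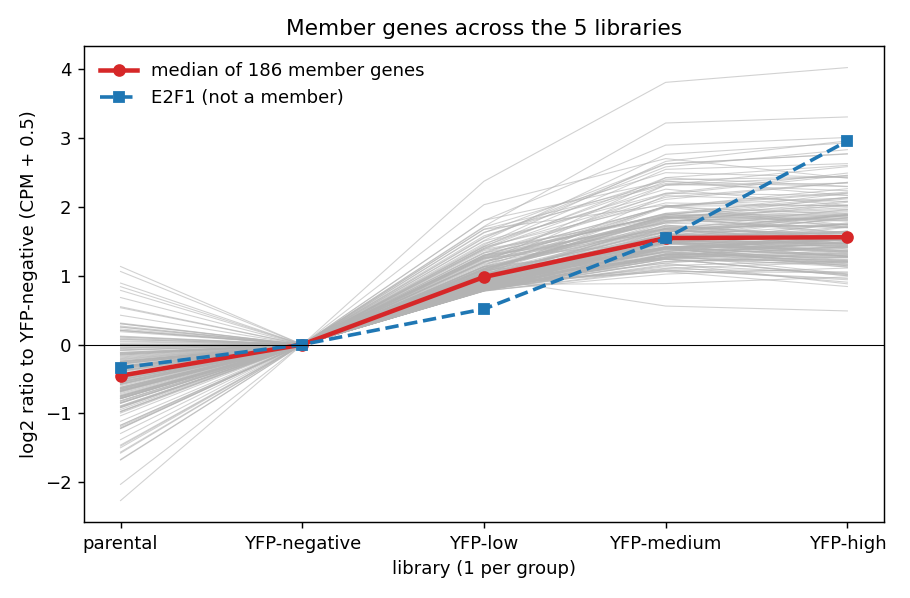
Log2 ratio of each gene to its own level in YFP-negative (vertical axis, CPM + 0.5) in the 5 libraries (horizontal axis). Grey lines are the 186 members, the red line their median and the dashed blue line E2F1. From YFP-medium to YFP-high the red line is flat, as the rule requires, while E2F1 is 2.66-fold higher in YFP-high.

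The genes nearest the limits show how the choice was drawn. For the first ratio EIF2AK2, SLC25A40 and CD58 lay just inside at 1.71 each, and USP1, BFSP1 and CDK19 just outside, under 1.7. At the lower edge of the window LOC100128191, TMEM201 and REEP1 lay inside at 0.813, 0.814 and 0.815, and ALYREF, TP73 and ARRB2 outside at 0.792, 0.791 and 0.786. At the upper edge TMEM17, KIAA1244 and LOC386597 were the last inside, at 1.248, 1.246 and 1.242, and STXBP5L, SBK1 and PIM1 the first outside, at 1.253, 1.253 and 1.256. By level in YFP-low, SMA5, WNT9A and TMEFF1 entered at 2.07, 2.11 and 2.15 CPM, while ABHD16A, AK054635 and TMEM238 missed the limit at 1.78, 1.73 and 1.69 CPM.

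The middle step, YFP-medium over YFP-low, is no contrast of the rule, though the rule used both libraries. Here 89 of the 186 members were higher, 0 lower and 97 neither, where 6.89% of all genes were higher and 6.38% lower. The members' median log2 ratio was 0.58, a ratio of 1.49, and that of all genes tested was -0.12. Only LIMS3-LOC440895 had a ratio below 1, at 0.755. In 15 members the ratio stayed under 1.25, in 82 it lay between 1.25 and 1.5, in 76 between 1.5 and 2, and in 13 it was 2 or more. Scaling by the trimmed mean of M values (TMM) moved the median of all genes in this step by 0.11 on the log2 scale. It moved the members' median to 0.70 and their count of higher genes to 138, beside 9.64% of all genes. The number of members called in this step thus depends on the scaling.

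The parental library played no part in the rule, but the YFP libraries set against it did. In YFP-negative cells 70 of 186 members were higher than in parental cells, 6 lower and 110 neither, where 7.56% of all genes were higher and 8.42% lower. The median log2 ratio was 0.45 for the members and 0.02 for all genes tested. E2F1 itself was 1.26-fold higher in YFP-negative than in parental cells (1.22 to 1.30). In YFP-high against parental cells 181 members were higher and 0 lower, with 24.9% of all genes higher and 37.2% lower. In YFP-low against parental cells 176 were higher and 0 lower, with 12.3% of all genes higher and 14.6% lower. The parental library was the lowest of the 5 for 157 members and YFP-negative for 29. The counts for YFP-low and YFP-high over parental cells follow in large part from the choice of genes, since each member was picked for a high level in YFP-low and a YFP-high level close to that of YFP-medium. The YFP-negative library, in the other comparison, was the lower side of the first ratio. These 3 comparisons share the parental library. The 5 members that were not called in YFP-high against parental cells were LRRC37A4, EYA2, PALM, LIMS3-LOC440895 and CD200, with ratios of 1.06, 1.17, 1.22, 1.29 and 1.42; they were named after their values were seen.

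**Figure D2:**
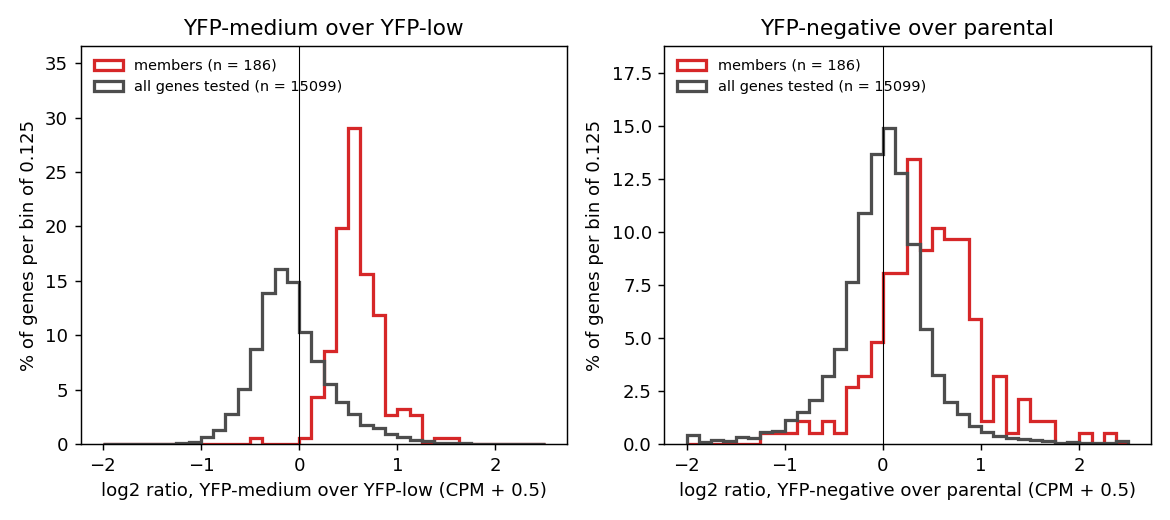
Share of genes (vertical axis, percent per bin) by log2 ratio (horizontal axis, CPM + 0.5) for YFP-medium over YFP-low on the left and YFP-negative over parental on the right, with values beyond the axis drawn in the end bins. Red outlines are the 186 members and grey outlines all 15099 genes tested. The members' medians are 0.58 and 0.45, those of all genes -0.12 and 0.02.

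For a view by function, 119 of the members were put into 8 groups of known roles after their values had been seen, so no count by role is evidence for that role. The other 67 were not grouped. Median ratios of YFP-medium to YFP-low lay between 1.41 for DNA replication and S phase genes and 1.54 for both transcription factors and the genes for ligands, receptors and surface proteins.

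**Figure D3:**
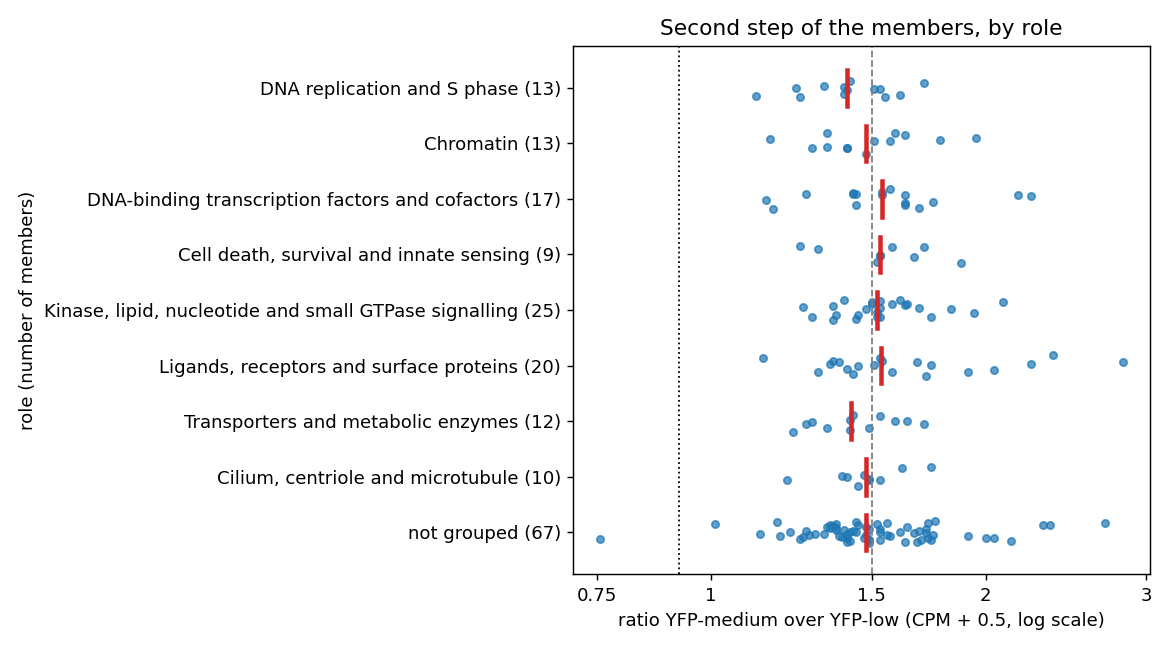
Ratio of YFP-medium to YFP-low (horizontal axis, CPM + 0.5, log scale) for each member, by role (rows, with the number of members). Points are genes, red bars medians, the dashed line the 1.5-fold limit and the dotted line the median of all genes tested, 0.923. The group medians lie close together, from 1.41 to 1.54, and the points reach from 0.755 to 2.83.

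A set of 13 members serves DNA replication and S phase. RRM2, the small subunit of ribonucleotide reductase, which makes deoxynucleotides, had 538 CPM in parental cells, 1053 in YFP-negative cells, 2523 in YFP-low cells, 3566 in YFP-medium cells and 3416 in YFP-high cells. Per length it also led the members, with 1920 TPM (transcripts per 1000000) in YFP-low. DCK, the kinase that salvages deoxycytidine, had 73.4 CPM in parental cells, 145 in YFP-negative cells, 335 in YFP-low cells, 477 in YFP-medium cells and 477 in YFP-high cells. Both enzymes of nucleotide supply were close to doubled in YFP-negative cells over parental ones, RRM2 at 1.96-fold (1.94 to 1.98) and DCK at 1.98-fold (1.91 to 2.04).

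Levels of DBF4, SLBP, DSCC1 and DONSON were lower than those of RRM2 and DCK. DBF4, which activates the kinase CDC7 at origins, had 69.4 CPM in parental cells, 98.9 in YFP-negative cells, 188 in YFP-low cells, 263 in YFP-medium cells and 295 in YFP-high cells. SLBP, which binds the stem-loop of histone mRNAs, had 50.9 CPM in parental cells, 79.3 in YFP-negative cells, 163 in YFP-low cells, 249 in YFP-medium cells and 244 in YFP-high cells. Its ratio of YFP-medium to YFP-low, 1.53-fold (1.5 to 1.57), passed the size rule, whereas that of DBF4, 1.40-fold (1.37 to 1.43), did not. DSCC1, part of the clamp loader for sister chromatid cohesion, and DONSON, a replication fork protein, were 1.51-fold (1.47 to 1.54) and 1.56-fold (1.52 to 1.59) higher in YFP-medium than in YFP-low.

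FAM111B, a protease family member, had 114 CPM in parental cells, 214 in YFP-negative cells, 662 in YFP-low cells, 1067 in YFP-medium cells and 1281 in YFP-high cells. Its neighbour and paralog FAM111A, a protease that acts at replication forks, had 137 CPM in parental cells, 151 in YFP-negative cells, 289 in YFP-low cells, 358 in YFP-medium cells and 302 in YFP-high cells. The pair thus parted in the middle step, at 1.61-fold (1.59 to 1.63) for FAM111B and 1.24-fold (1.21 to 1.26) for FAM111A. SKP2, the F-box protein that marks the inhibitor p27 for destruction, had 126 CPM in parental cells, 160 in YFP-negative cells, 315 in YFP-low cells, 441 in YFP-medium cells and 406 in YFP-high cells. LIN54, the DNA-binding subunit of the MuvB complex, was 1.71-fold higher in YFP-medium than in YFP-low (1.67 to 1.75). ATAD2, a bromodomain ATPase that works with E2F factors, had 416 CPM in parental cells, 468 in YFP-negative cells, 821 in YFP-low cells, 1024 in YFP-medium cells and 876 in YFP-high cells.

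MKI67, the proliferation marker Ki-67, stood apart among the abundant members. It had 920 CPM in parental cells, 773 in YFP-negative cells, 1443 in YFP-low cells, 1609 in YFP-medium cells and 1385 in YFP-high cells. Its middle step was only 1.12-fold (1.11 to 1.12), and it was lower in YFP-negative than in parental cells, without passing the size rule. The other 36 genes of a mitosis and spindle list that holds MKI67 summed to 7661 CPM in parental cells, 7227 in YFP-negative cells, 9615 in YFP-low cells, 9829 in YFP-medium cells and 7032 in YFP-high cells. That sum was lowest in YFP-high, whereas MKI67 in YFP-high was 1.51-fold above parental cells (1.49 to 1.52). MKI67 was chosen by limits on its first and last ratios and the other 36 genes were not. This contrast therefore follows in part from the choice of genes. The part of cell cycle phase in the members' values was not tested.

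Members were also counted in gene lists, and of all 15099 genes tested 186 were members. That share stands beside each count of list members from here on. In a list of 53 E2F target genes for G1/S and replication, 4 were members, RRM2, SLBP, DSCC1 and DBF4. In YFP-medium over YFP-low 5 of the 53 were higher and 0 lower, beside 6.89% and 6.38% of all genes, with a median log2 ratio of 0.11 against -0.12 for all genes tested. In YFP-negative over parental cells the list gave 2 higher and 3 lower genes, beside 7.56% and 8.42% of all genes, and a median log2 ratio of -0.23. Of 14 pocket protein, MuvB and MYB genes 1 was a member, LIN54. Of the 32 genes tested in a DNA damage and repair list, 0 were members. That list did not hold the repair gene DCLRE1C, a member counted here with DNA replication and S phase. Of 27 SCF, CRL4 and APC/C ubiquitin ligase genes 1 was a member, SKP2, and 0 were higher or lower in YFP-medium over YFP-low.

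Chromatin regulators gave 13 members. EZH2, the methyltransferase of Polycomb complex PRC2, had 29.2 CPM in parental cells, 53.1 in YFP-negative cells, 109 in YFP-low cells, 140 in YFP-medium cells and 120 in YFP-high cells. CBX2, a reader subunit of Polycomb complex PRC1, had 128 CPM in parental cells, 111 in YFP-negative cells, 231 in YFP-low cells, 449 in YFP-medium cells and 486 in YFP-high cells. A second PRC1 reader, CBX7, had 41.6 CPM in parental cells, 45.5 in YFP-negative cells, 91.5 in YFP-low cells, 145 in YFP-medium cells and 132 in YFP-high cells. The 3 Polycomb members differed in the middle step, at 1.29-fold (1.26 to 1.33) for EZH2, 1.95-fold (1.91 to 1.98) for CBX2 and 1.59-fold (1.54 to 1.64) for CBX7. Of 26 Polycomb and DNA methylation genes tested, 5 were higher in YFP-medium than in YFP-low and 0 lower, beside 6.89% higher and 6.38% lower over all genes.

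The other chromatin members included SMCHD1, which helps silence the inactive X chromosome, at 676 CPM in YFP-low and 391 in YFP-negative. ASH2L, a core subunit of histone H3 lysine methyltransferase complexes, was 1.57-fold higher in YFP-medium than in YFP-low (1.53 to 1.61). SPEN, a corepressor, was 1.63-fold higher in that step (1.60 to 1.65). PHF16 and PHF17, paralogs of the JADE family, parted there, at 1.78-fold (1.74 to 1.82) and 1.16-fold (1.14 to 1.19). Of 30 genes tested in a list of lysine demethylases and methyltransferases, 0 were members, beside 186 of all 15099 genes tested. That list did not hold EZH2, which stood in the Polycomb list, or ASH2L.

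Promoter sequences, from 250 bases before to 50 bases after a gene's start, were read from RefSeq tables of build GRCh38.p14 for 129 of the members, 112 by symbol and 17 by an older symbol, in 209 windows since a gene can have several starts. The E2F motif was searched as TTTCCCGC, TTTCGCGC, TTTGCCGC or TTTGGCGC on both strands, where matches on opposite strands can overlap and a window counts once. It was found in 15 of the 209 member windows (7.18%), in 4.68% of the 16329 windows of genes tested and in 3.31% of all 35116 windows. With the wider letters TTTNNCGC it was 21 of 209 member windows, 9.39% of those of genes tested and 6.89% of all. Other motifs gave 27.3% of member windows for CCAAT, 65.6% for GGGCGG and 15.8% for TTTGAA, and 34.0%, 64.9% and 10.6% of the windows of genes tested. Median GC content was 70.7% in member windows and 64.7% in those of genes tested. These shares were not tested, and a match is no evidence of binding.

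The windows of 5 members with a match are printed as examples from replication, chromatin, transport and signalling genes described here, with the E2F motif or its reverse complement in capitals. They lie at chr7:148884242-148884541, minus strand, for EZH2, at chr4:70993399-70993698, plus strand, for DCK, at chr11:59144612-59144911, plus strand, for FAM111A, at chr4:71187009-71187308, plus strand, for SLC4A4, and at chr19:7294365-7294664, minus strand, for INSR.
EZH2: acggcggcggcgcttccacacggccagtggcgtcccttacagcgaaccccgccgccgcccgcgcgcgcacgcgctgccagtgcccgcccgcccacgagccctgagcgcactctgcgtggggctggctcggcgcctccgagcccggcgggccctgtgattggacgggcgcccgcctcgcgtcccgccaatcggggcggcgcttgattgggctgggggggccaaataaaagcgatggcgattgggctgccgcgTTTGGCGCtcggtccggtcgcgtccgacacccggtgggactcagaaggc
DCK: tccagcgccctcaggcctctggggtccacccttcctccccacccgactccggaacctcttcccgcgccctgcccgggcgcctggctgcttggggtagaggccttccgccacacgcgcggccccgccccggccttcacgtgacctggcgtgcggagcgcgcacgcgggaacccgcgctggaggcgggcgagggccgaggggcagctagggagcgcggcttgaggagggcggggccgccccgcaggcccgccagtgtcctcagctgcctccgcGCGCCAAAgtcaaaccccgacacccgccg
FAM111A: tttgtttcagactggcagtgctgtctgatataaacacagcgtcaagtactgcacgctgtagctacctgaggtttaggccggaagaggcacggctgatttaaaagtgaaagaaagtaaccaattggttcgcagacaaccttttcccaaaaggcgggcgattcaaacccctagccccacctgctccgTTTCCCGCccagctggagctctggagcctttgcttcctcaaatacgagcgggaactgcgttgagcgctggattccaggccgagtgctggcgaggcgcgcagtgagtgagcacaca
SLC4A4: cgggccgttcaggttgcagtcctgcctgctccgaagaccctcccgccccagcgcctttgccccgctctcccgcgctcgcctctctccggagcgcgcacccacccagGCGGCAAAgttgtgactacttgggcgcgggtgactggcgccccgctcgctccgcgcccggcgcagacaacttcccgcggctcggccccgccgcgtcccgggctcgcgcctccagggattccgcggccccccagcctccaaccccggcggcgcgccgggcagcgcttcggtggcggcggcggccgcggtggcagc
INSR: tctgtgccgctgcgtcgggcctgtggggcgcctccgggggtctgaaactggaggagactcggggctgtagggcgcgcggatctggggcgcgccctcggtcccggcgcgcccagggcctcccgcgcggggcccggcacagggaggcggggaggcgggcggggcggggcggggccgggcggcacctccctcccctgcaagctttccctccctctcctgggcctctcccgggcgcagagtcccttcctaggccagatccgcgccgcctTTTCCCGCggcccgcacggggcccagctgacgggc
The match lies at or just after the start that the window was drawn for in EZH2, DCK and INSR. It begins 65 bases before that start in FAM111A and 144 bases before it in SLC4A4. EZH2, FAM111A and SLC4A4 have further windows at other starts, which held no match. RRM2, SKP2, SLBP, DBF4 and BCL2, whose windows are in the table, had no match there.

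Transcription factors and their cofactors made up 17 members. TEAD4, a DNA-binding partner of YAP, had 80.3 CPM in parental cells, 118 in YFP-negative cells, 214 in YFP-low cells, 349 in YFP-medium cells and 363 in YFP-high cells. CBFB, the common partner of RUNX factors, had 94.0 CPM in parental cells, 162 in YFP-negative cells, 288 in YFP-low cells, 412 in YFP-medium cells and 483 in YFP-high cells. The homeobox genes HMX2 and HMX3, which neighbour each other, were low, at 15.0 and 3.54 CPM in YFP-low. HMX3 was 2.34-fold higher in YFP-medium than in YFP-low (2.02 to 2.71) and HMX2 1.71-fold (1.59 to 1.84). POU2F2, an octamer-binding factor of B cells, was 2.27-fold higher in the same step (2.15 to 2.40).

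STOX1, a winged helix protein, had 9 reads in parental cells, 190 in YFP-negative cells, 682 in YFP-low cells, 836 in YFP-medium cells and 664 in YFP-high cells. It was 20.5-fold higher in YFP-negative than in parental cells, with a wide counting interval of 10.5 to 45.4. With 0.5 CPM added to both sides the ratio was 4.8. EYA2, a cofactor of sine oculis homeobox factors, went the other way at that point, at 1.78 CPM in YFP-negative against 4.25 in parental cells, 2.39-fold lower (1.95 to 2.95). In YFP-high EYA2 had 5.03 CPM, close to its parental level.

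Among genes of cell death, survival and innate sensing, 9 were members. BCL2, which blocks release of cytochrome c, had 11.4 CPM in parental cells, 48.0 in YFP-negative cells, 154 in YFP-low cells, 244 in YFP-medium cells and 227 in YFP-high cells. In the middle step BCL2 was 1.58-fold higher (1.54 to 1.62). Against parental cells YFP-negative cells held 4.20-fold more BCL2 RNA (3.90 to 4.54). Of the 12 anti-apoptotic genes tested BCL2 was the 1 member, and 1 was higher and 1 lower in YFP-medium than in YFP-low. Of the 32 pro-apoptotic genes tested 7 were higher and 3 lower in that step, in which 6.89% of all genes were higher and 6.38% lower.

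PPM1D, the phosphatase that acts against p53 and the 1 member among 21 p53 targets tested, had 107 CPM in parental cells, 79.6 in YFP-negative cells, 165 in YFP-low cells, 283 in YFP-medium cells and 338 in YFP-high cells. Unlike BCL2 it had a lower level in YFP-negative than in parental cells. Its step in YFP-medium over YFP-low was 1.71-fold (1.67 to 1.75). Among p53 targets as a list, 1 was higher and 3 lower in that step, beside the same shares of all genes, with a median log2 ratio of -0.31. Sensors of foreign nucleic acid were EIF2AK2, the RNA-activated kinase PKR, and MB21D1, the DNA sensor cGAS. MB21D1 was 1.89-fold higher in YFP-medium than in YFP-low (1.82 to 1.97) and EIF2AK2 1.25-fold (1.23 to 1.28).

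Kinase, lipid, nucleotide and small GTPase signalling formed the largest role, with 25 members. MAST2, a microtubule-associated kinase, had 196 CPM in parental cells, 314 in YFP-negative cells, 601 in YFP-low cells, 844 in YFP-medium cells and 814 in YFP-high cells. INSR, the insulin receptor, had 17.6 CPM in parental cells, 20.5 in YFP-negative cells, 42.2 in YFP-low cells, 64.7 in YFP-medium cells and 73.2 in YFP-high cells. Of 31 PI3K signalling and growth factor receptor genes tested INSR was the 1 member. SPHK1, which makes sphingosine-1-phosphate, was 1.95-fold higher in YFP-medium than in YFP-low (1.89 to 2.00) and 2.63-fold higher in YFP-negative than in parental cells (2.48 to 2.79). AKAP5, an anchor for protein kinase A, was 2.10-fold higher in the middle step (2.03 to 2.17), while its YFP-negative level of 24.7 CPM lay next to the parental one of 23.4 CPM. AMOTL1, an angiomotin family member, had 169 CPM in parental cells, 232 in YFP-negative cells, 484 in YFP-low cells, 701 in YFP-medium cells and 684 in YFP-high cells.

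Ligands, receptors and surface proteins held the steepest middle step. RTN4R, the receptor for the axon growth inhibitor Nogo, had 27.1 CPM in parental cells, 28.7 in YFP-negative cells, 95.1 in YFP-low cells, 270 in YFP-medium cells and 287 in YFP-high cells. It was 2.84-fold higher in YFP-medium than in YFP-low (2.77 to 2.92), the highest of all members. EFNA2, an ephrin ligand, had 6.62 CPM in parental cells, 6.08 in YFP-negative cells, 18.2 in YFP-low cells, 44.0 in YFP-medium cells and 49.4 in YFP-high cells. CD83, a surface protein of mature dendritic cells, had 10.3 CPM in parental cells, 33.8 in YFP-negative cells, 89.7 in YFP-low cells, 183 in YFP-medium cells and 207 in YFP-high cells. RTN4R and EFNA2 were nearly level between YFP-negative and parental cells, whereas CD83 was 3.30-fold higher in YFP-negative (3.04 to 3.58).

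KITLG, the ligand of the receptor KIT, had 19.1 CPM in parental cells, 35.9 in YFP-negative cells, 95.2 in YFP-low cells, 164 in YFP-medium cells and 199 in YFP-high cells. FST, the activin antagonist follistatin, was 1.91-fold higher in YFP-medium than in YFP-low (1.86 to 1.96). In the WNT pathway the receptor FZD8 was 1.76-fold (1.64 to 1.89) and the ligand WNT9A 2.54-fold higher (2.11 to 3.07) in that step. WNT9A was low throughout, with 2.37 CPM in parental cells, 0.810 in YFP-negative cells, 2.11 in YFP-low cells, 5.35 in YFP-medium cells and 5.01 in YFP-high cells, so its YFP-low level did not exceed that of parental cells. DCHS1, a large protocadherin, was likewise higher in parental than in YFP-negative cells, at 53 CPM in YFP-negative against 91.7 in parental cells. Among 35 NOTCH and WNT genes tested FZD8 was the 1 member, since the list did not hold WNT9A.

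**Figure D4:**
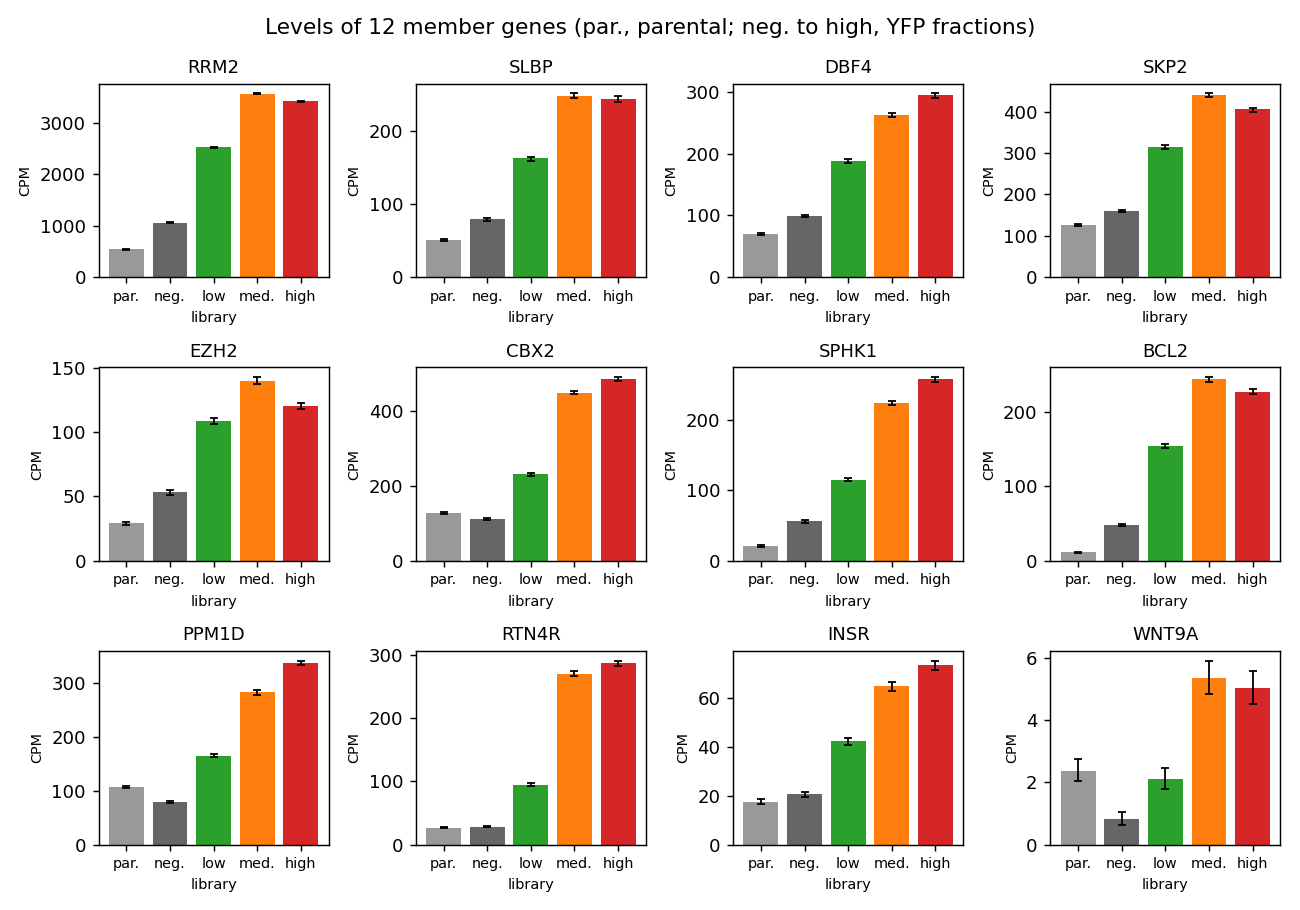
Level in CPM (vertical axes, from 0, each on its own scale) of 12 members in the 5 libraries (horizontal axes). Bars are single libraries and error bars exact 95% Poisson intervals of the reads, counting error only. RRM2, BCL2 and SPHK1 are lowest in parental cells, whereas CBX2, PPM1D and WNT9A are lowest in YFP-negative.

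Transporters and metabolic enzymes gave 12 members. SLC16A1, the lactate and pyruvate transporter MCT1, had 188 CPM in parental cells, 424 in YFP-negative cells, 958 in YFP-low cells, 1359 in YFP-medium cells and 1169 in YFP-high cells. SLC4A4, a sodium bicarbonate cotransporter, had 2.77 CPM in parental cells, 9.24 in YFP-negative cells, 39.2 in YFP-low cells, 62.6 in YFP-medium cells and 51.3 in YFP-high cells. Both were higher in YFP-negative than in parental cells, SLC16A1 at 2.26-fold (2.21 to 2.30) and SLC4A4 at 3.34-fold (2.86 to 3.92). ENO2, an enolase of glycolysis, was 1.64-fold higher in YFP-medium than in YFP-low (1.61 to 1.68), with 107 CPM in YFP-negative against 114 in parental cells.

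Cilium, centriole and microtubule genes gave 10 members. CCP110, which caps centrioles and holds back cilium growth, had 61.1 CPM in parental cells, 76.2 in YFP-negative cells, 167 in YFP-low cells, 202 in YFP-medium cells and 166 in YFP-high cells. It was the 1 member among 28 centrosome and centriole genes tested. MNS1, a protein of motile cilia and sperm tails, was 1.54-fold higher in YFP-medium than in YFP-low (1.47 to 1.62). ZMYND10, an assembly factor for ciliary dynein arms, was far lower, at 4.37 CPM in YFP-low. Among the transcription factors, RFX2 and IDAS (the gene MCIDAS) are regulators of motile cilia. RFX2 had 12.6 CPM in parental cells, 20.4 in YFP-negative cells, 51.9 in YFP-low cells, 74.5 in YFP-medium cells and 63.2 in YFP-high cells. IDAS had 4.57 CPM in parental cells, 8.44 in YFP-negative cells, 20.8 in YFP-low cells, 32.9 in YFP-medium cells and 38.7 in YFP-high cells. DPYSL2, a protein of axon growth that binds tubulin, was among the most abundant members, with 581 CPM in YFP-low and 260 in YFP-negative.

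The ungrouped members held further large values. LOC113230 had the largest ratio in the first step and 0.674 CPM in parental cells, 2.37 in YFP-negative cells, 14.3 in YFP-low cells, 39.5 in YFP-medium cells and 45.9 in YFP-high cells. FAM211A, CCDC64 and LZTS1 had 39.8, 95.8 and 75.5 CPM in YFP-low, against 11.1, 29.1 and 25 CPM in YFP-negative. KIAA1817 and SPSB4 had 12.7 and 30.9 CPM in YFP-low, against 3.29 and 9.72 CPM in YFP-negative. C17orf103 and C21orf63 were 2.37-fold (2.26 to 2.48) and 2.43-fold (2.16 to 2.75) higher in YFP-medium than in YFP-low. ICA1L was 3.59-fold higher in YFP-negative than in parental cells (3.08 to 4.20). PALM, a membrane protein of cell protrusions, was 1.8-fold lower there (1.72 to 1.89). ECE1, which processes endothelin and stands with the surface proteins, had 477 CPM in YFP-low and 276 in YFP-negative.

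The 5 members with the smallest middle step were LIMS3-LOC440895, LRRC37A4, MKI67, FAM22G and CD200. LIMS3-LOC440895, a read-through name over copied genes, had 2.59 CPM in parental cells, 2.34 in YFP-negative cells, 5.03 in YFP-low cells, 3.68 in YFP-medium cells and 3.48 in YFP-high cells, and so did not hold its YFP-low level. LRRC37A4, of a duplicated gene family, had 5.49 CPM in parental cells, 2.73 in YFP-negative cells, 5.41 in YFP-low cells, 5.46 in YFP-medium cells and 5.87 in YFP-high cells. FAM22G, also of a copied family, was 1.15-fold higher in YFP-medium than in YFP-low, with an interval of 0.953 to 1.38 that includes no change. CD200, a surface glycoprotein, was 1.15-fold higher (1.02 to 1.30). After the data were seen, 5 members were marked as of copied regions or with read-through names. None of these was among the 89 called higher in the middle step, in which 97 of all 186 members were not called. How well their reads were placed was not measured. No source used here gives the strand setting of the counting, so members that overlap another gene cannot be told apart from it.

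By level, the middle step was smallest among the members under 10 CPM in YFP-low, with a median ratio of 1.39 over 29 genes. It was 1.53 over the 85 members from 10 to 100 CPM and 1.49 over the 72 with 100 CPM or more. Without the added 0.5 CPM the medians were 1.42, 1.54 and 1.49. Per length, median TPM of the 186 members was 11.7 in parental cells, 16.8 in YFP-negative cells, 38.3 in YFP-low cells, 61.4 in YFP-medium cells and 65.4 in YFP-high cells. After RRM2, C1QL1, a secreted C1q family protein, had 540 TPM in YFP-low, FAM111B 484 TPM and SLC16A1 411 TPM.

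By place, 5 pairs of members were next to each other among protein-coding genes of RefSeq (GRCh38.p14). These were TAF5L and URB2, HMX3 and HMX2, FAM111B and FAM111A, DCK and SLC4A4, and SLC25A40 and DBF4. The promoter windows of SLC25A40 and DBF4 overlap, at chr7:87876311-87876610 on the minus strand and chr7:87876243-87876542 on the plus strand. Whether the genes of any pair are controlled together was not tested.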

How the data were processed

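The authors deposited raw read counts per gene name for the 5 libraries, and a second table of TPM scaled to 1000000 per library. Per the submitters' processing notes, which give no order or settings, the tools included HISAT2 2.0.3 and HTSeq 0.6.0, with Trimmomatic 0.36, CASAVA 1.8.2 and bcl2fastq, on build hg19. For the TPM tool, the annotation and the strand setting: not given in the sources used here.

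HTSeq's 5 classes of reads without a gene and a row named unknown were left out. Gene reads were 75.7% to 77.7% of all counted reads, and the unknown row at most 0.00073%. CPM used total gene reads, the scale of the rule that chose the members, and TPM is named where used. Size calls asked for 1.5-fold on CPM + 0.5 and an exact interval (Clopper-Pearson on both counts) that excluded 1. No p-value was computed.

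The members and all gene lists were chosen with earlier results of these data known. Named genes are E2F1, the 12 largest ratios of YFP-low to YFP-negative, the 10 highest levels in YFP-low, list members, the 5 largest and 5 smallest ratios of YFP-medium to YFP-low and of YFP-negative to parental, and genes next to each limit. Others were named after their values were seen. Alternatives were TMM (edgeR 4.0.16), DESeq2 1.42.0 size factors, TPM, other limits, folds, pseudocounts, filters and motif windows. R 4.3.3, Python 3.11.15, pandas 2.3.3, scipy 1.17.1 and matplotlib 3.10.9 were used. Some items that these rules name are not reported here.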

Additional observations from a re-analysis of the deposited data

How the results depend on the processing

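With 1 library per group, no value has a replicate check, and at 70.7 M to 76.5 M gene reads counting error is small beside an unknown spread between samples. The rule found 186 genes, and 158 to 273 under the other scalings, TPM, pseudocount, filters, window and names tried, but 83 with a first-step fold of 2. Under TMM 171 of the 186 still met it, and under DESeq2 size factors 158. The count of members higher in YFP-medium than in YFP-low, 89, was 138 with TMM, 143 with DESeq2 size factors and 13 with a 2-fold rule. The median log2 ratio of that step, 0.58, was 0.70 with TMM, 0.71 with DESeq2 and 0.62 with TPM. In YFP-high against parental cells the median, 2.11, was 2.34 with TMM, 2.38 with DESeq2, 2.20 with TPM and 1.99 with a pseudocount of 2 CPM; TMM moved the median of all genes there by 0.22. In YFP-negative against parental cells the 70 higher members were 19 with a 2-fold rule, beside 7.56% and 2.34% of all genes. Leaving out 5 members of uncertain read placement, an alternative chosen after seeing the data, gave 89 again because none of the 5 was among those called. No direction of these counts or medians turned under any alternative run. No paired analysis was possible because each group has 1 library and the labels number no replicates.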

Other observations

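The 8 genes that met the limits but were set aside by name had levels of the same kind. CCND3, a D-type cyclin, had 60.9 CPM in parental cells, 195 in YFP-negative cells, 495 in YFP-low cells, 764 in YFP-medium cells and 755 in YFP-high cells. CCNE1, an E-type cyclin, had 75.2 CPM in parental cells, 171 in YFP-negative cells, 441 in YFP-low cells, 614 in YFP-medium cells and 650 in YFP-high cells. CDKN1B, the inhibitor p27 that SKP2 marks for destruction, had 62.1 CPM in parental cells, 51.7 in YFP-negative cells, 130 in YFP-low cells, 230 in YFP-medium cells and 257 in YFP-high cells. KCNG3, a potassium channel subunit, had 2.89 CPM in parental cells, 12 in YFP-negative cells, 45.3 in YFP-low cells, 79.9 in YFP-medium cells and 84.5 in YFP-high cells. CCNE2, CCNO, CDKN2D and COLEC12 had 164, 51.0, 36.1 and 21.2 CPM in YFP-low, against 58.8, 17.2, 17.6 and 5.89 CPM in YFP-negative.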
